A study of Mus musculus with 6 samples.

Results

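The genes described here are 8 that encode, for the most part, factors released by stressed cells: the stanniocalcins Stc1 and Stc2, the cytokine Mif and its relative Ddt, the galectins Lgals1 and Lgals3, Angptl4, and the enzyme Lta4h. They were chosen by gene symbol, with earlier results of the comparison of hypoxia with normoxia on these arrays known. Their signals in that comparison are therefore given as a description, and no p-value is printed for them. Where 1 of them is said to be called, this describes the fit and is no independent test. All 17 probe sets annotated to these symbols were taken, of 45037 probe sets in the table, and 0 further probe sets listed one of the 8 symbols beside another gene. A filter on low signals kept 9 of the 17, at least 1 for 7 of the 8 genes, of 11332 genes with a kept probe set in all. Angptl4 had none.

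Total RNA came from HL-1 cells, a mouse line derived from an atrial tumour that contracts in culture and keeps much of the cardiomyocyte programme. Confluent cultures were held for 8 hours at 1% oxygen (hypoxia, 3 arrays) or at 21% oxygen (normoxia, 3 arrays), and no genotype, drug or other treatment is given in the labels. All samples are of 1 line, which was not compared with primary atrial cells. Nothing in the labels says that the 3 samples of a group were separate cultures, so the spread between them may be technical. Values are MAS5 signals, 1 per probe set and array, on a linear scale. In RNA of a whole culture, fewer cells making a transcript and less of it per cell cannot be told apart.

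Cells short of oxygen stabilise the transcription factor HIF-1, which binds a short core sequence near its target genes and raises their transcription. Some of the targets act outside the cell. Stanniocalcins are glycoprotein hormones first known from calcium control in fish, and in mammals they act locally. MIF is an inflammatory cytokine that cardiomyocytes store and release in ischaemia. Galectins are lectins that bind galactose-bearing glycans on the cell surface and in the matrix, and galectin-3 is known in the heart for its link with fibrosis.

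The arrays shared one scale, with a trimmed mean of 99.5 on each and median signals between 15 and 19. Of the atrial markers, Myl7 was the brightest, with 8687 in hypoxia and 8653 in normoxia, and the summed signal of the 8 listed was 29474 to 32082 in hypoxia and 29664 to 31518 in normoxia. Of these 8 markers, 0 had a limma adjusted p under 0.05 and 2 an unadjusted p under 0.05. Over all genes these shares were 0.75% and 12.4%, so a count of 0 among 8 says little. The 2 were Nppa and Sln, named after their values were seen, which had all 3 hypoxia arrays above the 3 normoxia arrays. Myl4, named in the same way, had all 3 below (log2 fold change -0.12, limma adjusted p = 0.639). Over all genes, 8.16% had the hypoxia arrays all above and 9.91% all below. Of the 8 markers, 5 had log2 fold changes above 0 and 3 below. Nppa, which encodes atrial natriuretic peptide, had 1308 ± 260 in hypoxia and 791 ± 276 in normoxia (log2 fold change 0.76, limma adjusted p = 0.24). Sln, which encodes sarcolipin, had a log2 fold change of 0.88 (limma adjusted p = 0.231). Slc2a1, a glucose transporter and a standard target of HIF-1, was 4.22-fold higher in hypoxia (limma adjusted p = 0.00038), which goes with the oxygen labels. The transcript of Hif1a itself averaged 1947 ± 134 over the hypoxia arrays and 2099 ± 266 over the normoxia arrays (log2 fold change -0.10, limma adjusted p = 0.789; errors here and elsewhere are SDs of 3 arrays).

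Of the 7 genes with a kept probe set, 4 were called higher in hypoxia and 0 lower: Stc1, Lgals3, Lta4h and Mif, with fold changes between 1.50 and 2.98. A call is an adjusted p under 0.05 in the limma fit over all kept probe sets. Of all 11332 genes, 0.75% were called in either direction and 0.662% were called higher. Nothing is read from that difference, because the 4 genes were known to differ when the list was made. The median log2 fold change of the 7 genes was 0.58, beside -0.04 over all genes, and the same limit holds for it. Stc2, Lgals1 and Ddt were not called.

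**Figure D1:**
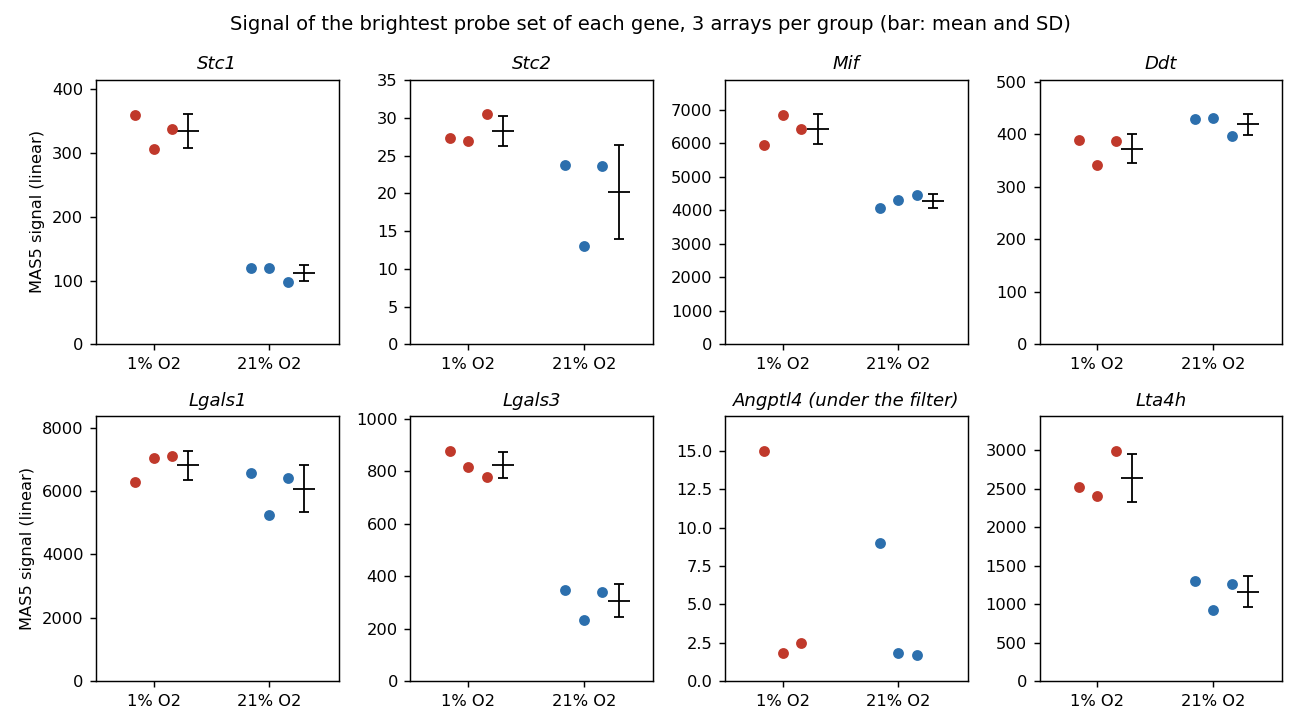
MAS5 signal (linear, each panel with its own axis from 0) of the brightest probe set of each gene, for the 3 hypoxia arrays (1% O2, red) and the 3 normoxia arrays (21% O2, blue), with the mean and SD beside the points except for Angptl4. Stc1, Mif, Lgals3 and Lta4h show separate groups with hypoxia higher. Stc2, which is dim and was not called, does too, by a narrow margin. Lgals1 overlaps, and Ddt lies slightly lower in hypoxia.

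Stc1, which encodes stanniocalcin-1, had signals of 359, 306 and 337 on the hypoxia arrays, against 119, 120 and 97.9 on the normoxia arrays. The lowest hypoxia array was 2.55 times the highest normoxia array. The fold change was 2.98 (log2 fold change 1.58, SE 0.16), the 47th largest rise among 11332 genes. Stc1 was called in the fit without any 1 of the 6 arrays, with log2 fold changes between 1.48 and 1.64. Among the 8 genes it alone kept its call in all 6 of these fits. A second probe set of Stc1, annotated to the same source sequence, lay under the filter and ran the other way. It read 4.6, 8.7 and 3.3 in hypoxia, against 20.6, 16.2 and 20.6 in normoxia. Its groups did not overlap either, and which transcript or strand it measures was not tested. In the mean of the log2 signals of both probe sets, the log2 fold change of Stc1 was -0.16.

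Stc2, which encodes stanniocalcin-2, was dim. Its brightest probe set had 27.3, 26.9 and 30.5 in hypoxia, against 23.8, 13.0 and 23.7 in normoxia. The hypoxia arrays all lay above the normoxia arrays, but the lowest was only 1.13 times the highest of normoxia, and most of the difference came from the low second normoxia array. The log2 fold change was 0.54 (SE 0.35) and it was not called. Without normoxia replicate 2 it was 0.25. The other 2 probe sets of Stc2 lay under the filter and had log2 fold changes of -1.40 and 1.27, so the gene had no direction shared by its 3 probe sets.

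The pattern of Stc1 over the 6 arrays was most like that of Slc2a1 (Pearson r = 0.998 on log2 signals). Next came Amhr2 (r = 0.998), a receptor of anti-Müllerian hormone; Higd1a (r = 0.994), a mitochondrial protein; Grhpr (r = 0.993), a glyoxylate reductase; and Nanos1 (r = 0.992), an RNA-binding protein. These are the 5 highest among all measured genes outside the list, and the same 5 were each called higher. The 6 points fall into the 2 oxygen groups, so any gene that differs strongly and evenly between them scores high. Grhpr, for example, had 515 ± 35.2 in hypoxia and 192 ± 9.57 in normoxia.

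Mif was called higher by a modest factor on a strong signal. It had 5954, 6854 and 6431 in hypoxia, against 4058, 4304 and 4459 in normoxia. The groups stood apart, with the lowest hypoxia array 1.34 times the highest normoxia array. The fold change was 1.50 (log2 fold change 0.58, SE 0.09), and 4.64% of all genes had a larger one. The call was lost without hypoxia replicate 1, hypoxia replicate 2, normoxia replicate 2 or normoxia replicate 3, while the log2 fold change stayed between 0.54 and 0.64. The other 2 probe sets of Mif read at most 13.0 on any array and overlapped between the groups. RefSeq names 3 loci as Mif pseudogenes, and whether they add to the signal was not tested.

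Ddt encodes D-dopachrome tautomerase, the close relative of MIF that shares its fold and its receptor. Its 1 probe set had 390, 341 and 387 in hypoxia, against 429, 432 and 397 in normoxia. Every hypoxia array lay below every normoxia array, by as little as 390 against 397. The log2 fold change was -0.17 (SE 0.13) and Ddt was not called. The sign of Ddt was negative and that of Mif positive in the main fit and under all 15 alternatives, scalings included. Of all genes, 9.91% had their 3 hypoxia arrays below the 3 normoxia arrays, and 8.16% had them above, as 5 of the 7 measured genes here did.

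Mif and Ddt lie close together on mouse chromosome 10, with 4 glutathione transferase genes between them in RefSeq. This stretch was looked at after the values of Mif and Ddt were seen, taking the 4 protein-coding genes on each far side. Of the 12 other genes, 8 were measured and 0 were called, beside 0.75% called among all genes. The log2 fold changes of the 8 lay between -0.74 (Susd2, limma adjusted p = 0.302) and 0.03 (Chchd10, limma adjusted p = 0.945). Of the 8, 7 were below 0 and 1 was above 0, while 44.4% of all genes were above 0. For 3 of the 8 (Susd2, Gstt1 and Derl3) the hypoxia arrays all lay below the normoxia arrays, beside 9.91% of all genes. Gstt1, the only measured gene between the pair, had 513 ± 55.9 in hypoxia and 637 ± 58.3 in normoxia (limma adjusted p = 0.452). Derl3, next to Mif on its other side, had 73.5 ± 5.20 in hypoxia and 104 ± 14.3 in normoxia (limma adjusted p = 0.371). Mif was thus the one called gene among the 10 measured in this stretch. It was chosen with its result known, so nothing is read from that contrast.

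**Figure D2:**
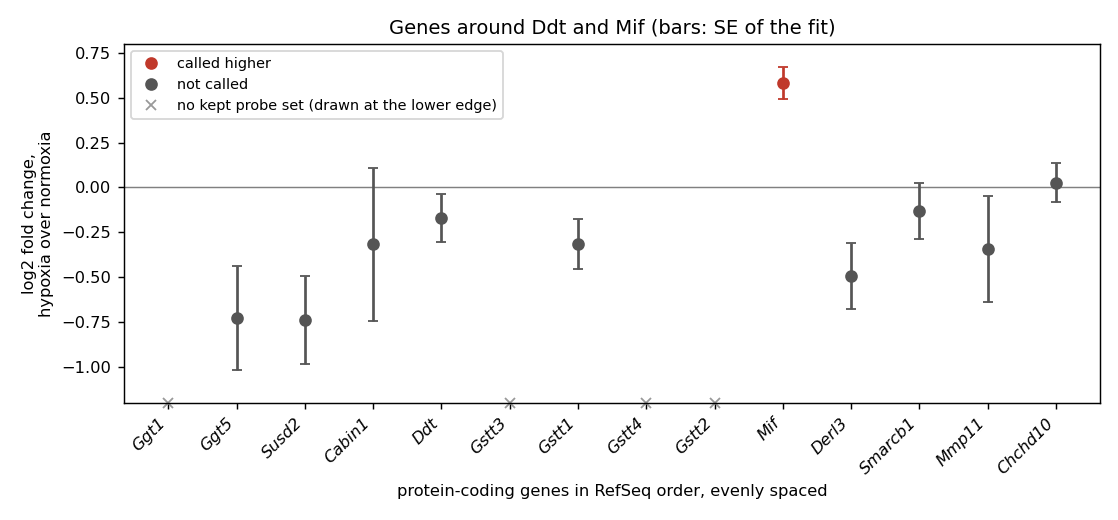
Log2 fold change of hypoxia over normoxia (vertical axis; bars are the SE of the fit) for the 14 protein-coding genes around Ddt and Mif in RefSeq order, drawn at even spacing. Mif stands at 0.58 and the other measured genes lie between -0.74 and 0.03.

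The core sequence bound by HIF-1 reads ACGTG or GCGTG. It was searched for on both strands of the RefSeq promoters (build GRCm38.p6), each running from 250 bases before the gene's start to 50 after it. Of 32851 such windows in the mouse table, 43.8% held at least 1 match, so a match in any one promoter is common. The table held 5 of the 8 genes, and 4 of these had a match. The promoters of Mif and Ddt are printed because the pair is related and their log2 fold changes had opposite signs. In Mif the only match lay at bases 30 to 34 after the start, on the reverse strand, shown in capitals in the second stretch. In Ddt the matches on both strands overlapped in the palindrome CACGTG, which is also the E-box bound by other factors, and spanned bases 169 to 164 before the start.
Mif, 250 bases before the start, chr10:75860278-75860527, minus strand, 5′ to 3′: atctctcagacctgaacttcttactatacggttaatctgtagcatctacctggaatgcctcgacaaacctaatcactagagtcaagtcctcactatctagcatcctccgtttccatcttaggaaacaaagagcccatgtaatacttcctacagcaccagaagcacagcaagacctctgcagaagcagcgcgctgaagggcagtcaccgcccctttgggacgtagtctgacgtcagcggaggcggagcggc
Mif, bases 18 to 47 after the start, chr10:75860231-75860260, minus strand, 5′ to 3′: actgagctgggtCACGTagctcaggtccct
Ddt, 250 bases before the start, chr10:75773375-75773624, minus strand, 5′ to 3′: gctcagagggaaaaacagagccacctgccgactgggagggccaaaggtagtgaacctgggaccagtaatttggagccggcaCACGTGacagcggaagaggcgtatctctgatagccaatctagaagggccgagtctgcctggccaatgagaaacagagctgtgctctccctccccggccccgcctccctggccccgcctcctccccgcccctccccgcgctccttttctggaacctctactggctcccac

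Lgals3, which encodes galectin-3, differed by nearly as much as Stc1. It had 878, 815 and 780 in hypoxia, against 346, 233 and 338 in normoxia on its 1 probe set. The lowest hypoxia array was 2.25 times the highest normoxia array, so the groups were far apart. The fold change was 2.74 (log2 fold change 1.45, SE 0.17), the 58th largest rise. The call was lost only without hypoxia replicate 1 among the fits with 1 array left out.

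Galectin-3 is abundant in macrophages, so their markers are given beside it. Of the 8 macrophage markers, 4 were measured and 0 were called by limma, with 1 at an unadjusted p under 0.05 (Cd68). Over all genes these shares were 0.75% and 12.4%, so a count of 0 among 4 says little. Ptprc, Lyz2, Cd14 and Itgam, named after their values were seen, lay under the filter. The summed signal of the 8 was 119 to 156 in hypoxia and 99.2 to 157 in normoxia. Csf1r, the brightest of them, had 37.9 in hypoxia and 44.0 in normoxia. Cd68, a lysosomal protein, named after its values were seen, had 44.0 ± 4.97 in hypoxia and 20.2 ± 4.56 in normoxia (limma adjusted p = 0.157). The part of such cells in the Lgals3 result was not tested. The sums of the fibroblast, endothelial and adipocyte markers also overlapped between the groups and reached at most 240, 226 and 48.8. Their brightest markers were Col3a1 (78.3 in hypoxia, 65.1 in normoxia), Vwf (98.7 in hypoxia, 98.5 in normoxia) and Fabp4 (13.4 in hypoxia, 25.4 in normoxia). Fabp4, the only adipocyte marker measured, had all 3 hypoxia arrays below the 3 normoxia arrays (limma adjusted p = 0.426), as 9.91% of all genes did. The sums include markers under the filter.

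Lgals1, which encodes galectin-1, was bright, and its groups overlapped. Its brighter probe set had 6289, 7039 and 7119 in hypoxia, against 6570, 5234 and 6433 in normoxia. The first hypoxia array lay below 2 of the normoxia arrays. Its log2 fold change was 0.17 (SE 0.11), and the second probe set, with 0.24 (SE 0.15), overlapped too. Neither was called. The 2 galectins of the list therefore had log2 fold changes of 1.45 and 0.17, and the difference between them was not tested.

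Lta4h encodes leukotriene A4 hydrolase, a cytosolic enzyme that makes leukotriene B4 and also trims peptides. It had 2524, 2402 and 2994 in hypoxia, against 1296, 929 and 1258 in normoxia. The groups were apart, with the lowest hypoxia array 1.85 times the highest normoxia array. The fold change was 2.29 (log2 fold change 1.19, SE 0.15), and 0.803% of all genes had a larger one. The call was lost without hypoxia replicate 1. A second kept probe set of Lta4h, far dimmer, had 18.7 ± 6.55 in hypoxia and 22.1 ± 9.94 in normoxia and was not called. The third lay under the filter.

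The promoters of Lgals3 and Lta4h are printed because both genes were called and their windows differ. Lgals3 had 1 match to the core, GCGTG at bases 90 to 86 before the start, in capitals. Lta4h had 0 matches in the window of 300 bases, which says only that these letters are not there. Stc2, which was not called, had 2 matches, at bases 240 to 236 and 231 to 227 before its start. Matches were thus found in promoters of called genes and of genes not called.
Lgals3, 250 bases before the start, chr14:47373610-47373859, plus strand, 5′ to 3′: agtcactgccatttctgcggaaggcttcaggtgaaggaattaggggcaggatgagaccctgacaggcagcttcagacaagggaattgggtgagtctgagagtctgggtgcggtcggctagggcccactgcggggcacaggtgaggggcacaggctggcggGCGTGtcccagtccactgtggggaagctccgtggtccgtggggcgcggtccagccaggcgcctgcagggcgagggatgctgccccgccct
Lta4h, 250 bases before the start, chr10:93453146-93453395, plus strand, 5′ to 3′: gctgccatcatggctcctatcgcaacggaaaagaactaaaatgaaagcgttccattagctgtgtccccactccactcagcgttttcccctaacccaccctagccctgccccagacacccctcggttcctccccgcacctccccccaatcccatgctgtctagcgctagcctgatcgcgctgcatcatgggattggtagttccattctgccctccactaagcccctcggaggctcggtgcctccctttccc

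Angptl4 encodes a secreted inhibitor of lipoprotein lipase that is induced by fasting, PPAR ligands and hypoxia in several tissues. Here both of its probe sets lay under the filter and were not tested. The brighter had 15, 1.8 and 2.5 in hypoxia, against 9.0, 1.8 and 1.7 in normoxia. The first array of each group was high and the others low, and the groups overlapped. The second probe set read at most 6.7 on any array. The groups overlapped on this probe set too, and nothing is read from signals this low. Since it had no kept probe set, no genes with a like pattern were sought for it.

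**Figure D3:**
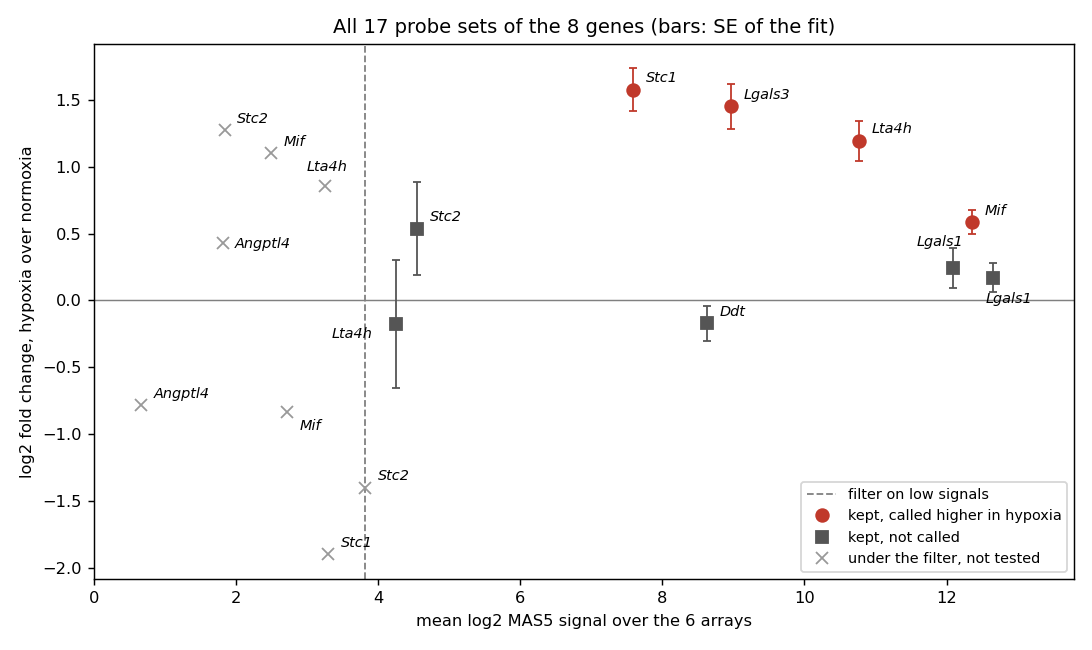
Log2 fold change of hypoxia over normoxia (vertical axis; bars are the SE of the fit) against mean log2 signal over the 6 arrays (horizontal axis) for all 17 probe sets of the 8 genes, with the filter as a dashed line. The 4 called probe sets are bright; the 8 probe sets under the filter scatter from -1.90 to 1.27.

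The 8 probe sets under the filter spread over both signs, from -1.90 for the second probe set of Stc1 to 1.27 for the third of Stc2. Of the 9 kept probe sets, 7 were above 0. One Stc2 probe set, with a geometric mean signal of 14.1, fell just short of the filter and had a log2 fold change of -1.40. The text therefore rests on the brightest probe set of each gene.

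Receptors, targets and relatives of the 8 products were counted next, from 5 lists drawn up from general knowledge of the pathways. Of 83 listed genes, 49 were measured, 27 lay under the filter and 7 had no probe set with that 1 symbol. None of the 49 was called by limma, in either direction, beside 0.75% of all genes. At that share a count of 0 says little about 49 genes. Of the 49, 13 had an unadjusted limma p under 0.05, a larger share than the 12.4% of all genes. The lists were drawn up with earlier results known, so nothing is read from that difference. The median log2 fold change of the 49 was -0.01, with 24 above 0 and 25 below. Over all genes the median was -0.04, with 44.4% above 0. The lists mix binding partners, relatives and regulators.

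Of the stanniocalcin list, 6 of 9 genes were measured. Pappa and Pappa2, the proteases that stanniocalcins inhibit, both lay under the filter and were not tested. They were named after their values were seen. Pappa had means of 9.8 in hypoxia and 1.7 in normoxia, and Pappa2 had 17.4 and 11.4. Both had all 3 hypoxia arrays above the 3 normoxia arrays, as 8.16% of the genes with a kept probe set did. The share among genes under the filter was not counted, and nothing is read from signals this low. The substrates of these proteases were bright. Igfbp4 had 629 ± 186 in hypoxia and 852 ± 295 in normoxia (limma adjusted p = 0.628), and Igfbp5 had 608 ± 67.3 in hypoxia and 591 ± 118 in normoxia (limma adjusted p = 0.93). Sod2, the mitochondrial superoxide dismutase, had a log2 fold change of -0.03 (limma adjusted p = 0.961).

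Of the MIF list, 5 of 10 genes were measured. The receptor Cd74 was dim, at 27.9 ± 11.7 in hypoxia and 34.6 ± 15.1 in normoxia (limma adjusted p = 0.848). Its co-receptor Cd44 and the chemokine receptors Cxcr2, Cxcr4 and Ackr3 lay under the filter, with means of at most 7.37, and were not tested. Cd44 had means of 3.13 in hypoxia and 7.37 in normoxia, with all 3 hypoxia arrays below the 3 normoxia arrays. Of the genes with a kept probe set, 9.91% had this order. Cxcr2, Cxcr4 and Ackr3 overlapped between the groups. These receptors were named after their values were seen. The intracellular partners were bright. Cops5, a subunit of the COP9 signalosome, had a log2 fold change of -0.08 (limma adjusted p = 0.882), thioredoxin (Txn1) one of 0.04 (limma adjusted p = 0.909) and the ribosomal protein Rps19 one of 0.27 (limma adjusted p = 0.39).

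Among other galectins and the glycoproteins that galectins bind, 15 of 18 genes were measured, with a median log2 fold change of -0.11. Bsg, which encodes basigin, had 5030 ± 1170 in hypoxia and 2964 ± 220 in normoxia (log2 fold change 0.74, limma adjusted p = 0.0999). Its 3 hypoxia arrays lay above the 3 normoxia arrays. Bsg was called under 1 of 15 alternatives, without hypoxia replicate 3, its lowest hypoxia array (limma adjusted p = 0.00316). Lamp1, a lysosomal membrane protein, had a log2 fold change of 0.12 (limma adjusted p = 0.774), and Dag1, dystroglycan, one of 0.18 (limma adjusted p = 0.757).

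The list of ANGPTL relatives and lipase control had 13 of 22 genes measured and a median of 0.03. Lpl, the lipase that ANGPTL4 inhibits, was bright and had 2803 ± 494 in hypoxia and 2749 ± 469 in normoxia (log2 fold change 0.03, limma adjusted p = 0.961). The integrin subunit Itgav had a log2 fold change of 0.54 (limma adjusted p = 0.337) and the syndecan Sdc1 one of 0.52 (limma adjusted p = 0.406).

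Around Lta4h, 10 of 24 genes of leukotriene and prostanoid metabolism were measured, with a median of -0.06. Alox5 and Alox5ap, the lipoxygenase that makes leukotriene A4 and its activating protein, lay under the filter, with means of at most 20.1, as did the leukotriene B4 receptor Ltb4r1. They were named after their values were seen. Of the measured genes, Ephx1, an epoxide hydrolase, had 1548 ± 154 in hypoxia and 950 ± 169 in normoxia (log2 fold change 0.72, limma adjusted p = 0.0798). It was called under 1 of 15 alternatives, without normoxia replicate 1, its highest normoxia array (limma adjusted p = 0.026). Ptgds, a prostaglandin D synthase, had a log2 fold change of -0.41 (limma adjusted p = 0.365), and Mgst3, a microsomal glutathione transferase, one of -0.06 (limma adjusted p = 0.91).

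**Figure D4:**
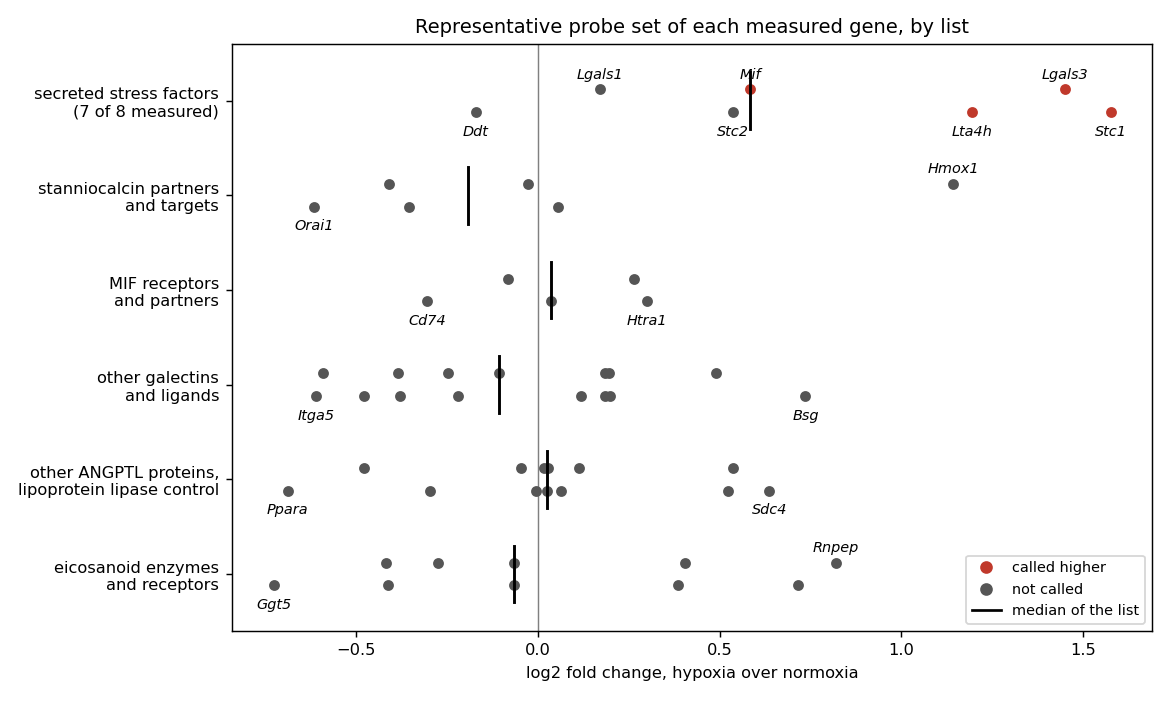
Log2 fold change of hypoxia over normoxia (horizontal axis) for the representative probe set of each measured gene: the 7 measured secreted stress factors in the top row and the 5 lists of related genes below, with called genes in red and each list's median as a black line. The 4 red points, all in the top row, lie at 0.58 to 1.58. The genes of that row were chosen with earlier results known. The medians of the 5 lists lie between -0.19 and 0.04.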

How the data were processed

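The authors' deposited intensity, a MAS5 signal on a linear scale per the submitters' processing notes, was used for each of 45037 probe sets on 6 arrays; the labels name no version or settings. No further scaling was applied. The 10 values of 0 were set to 0.1, and log2 was taken of the deposited values. Probe sets with a mean log2 signal above the median of all (geometric mean 14.1) were kept, 22518 in number, and fitted with limma 3.58.1 in R 4.3.3 (eBayes with trend, two-sided, no covariates). P-values were adjusted by Benjamini-Hochberg over all kept probe sets and called under 0.05. An exact permutation test of 3 against 3 arrays cannot go below p = 0.1. The number of arrays limits the precision.

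Names came from the platform's annotation; 34945 probe sets had 1 symbol, 932 several and 9160 none. A gene is represented by its kept 1-symbol probe set of highest mean. The procedure was tested on simulated data. The 8 genes and the lists were chosen with earlier results of these data known. Named were all 8 genes, up to 3 called and the 3 brightest uncalled genes of each list, the 5 genes most like Stc1, the brightest marker of each cell type, and Slc2a1 and Hif1a; others are said to be named after their values were seen. Alternatives covered scaling, offset, filter, variance model, replicate block, the mean of a gene's probe sets, and each array left out. Neighbours and promoters came from RefSeq, GRCm38.p6.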

Additional observations from a re-analysis of the deposited data

How the results depend on the processing

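Centring on array medians moved the median log2 fold change of all genes to 0.07, from -0.04 with the scaling as deposited. Stc1 was called under 14 of 15 alternatives, Lgals3 under 13, Lta4h under 12, Mif under 8, and Lgals1 and Ddt under 0. Stc2 was called under 0 of 13. It was not tested with the filter at the 75th percentile or on the average over every probe set. Of the 8 genes, 4 were called in the main setting and 1 without the variance trend (Stc1) and 1 on the average over every probe set (Lgals3), where the log2 fold change of Stc1 turned to -0.16 because its dim probe set entered the mean. Mif was not called without the filter. With 1 array left out, 1 to 4 of the genes were called, 39 to 200 probe sets (137 in the main setting), 24 to 128 genes (85) and 0 to 2 genes of the related lists. The lowest counts of probe sets, genes and the 8 came without hypoxia replicate 1, where only Stc1 of the 8 was called; 27 genes were called without normoxia replicate 3, 37 without hypoxia replicate 2, 52 without normoxia replicate 2 and 128 without normoxia replicate 1. Without the trend, 18 probe sets and 9 genes were called. After median centring 1 gene of the related lists was called. The cause of these differences was not tested. Same-numbered arrays of the 2 groups did not deviate together as a rule (correlations -0.076, 0.207 and -0.136). Between differently numbered arrays the correlations ran from -0.3 (hypoxia replicate 2, normoxia replicate 1) to 0.319 (hypoxia replicate 3, normoxia replicate 1). The numbers were therefore not taken as pairs. With the replicate block, 105 probe sets, 63 genes and 4 of the 8 genes were called. Genes of the related lists with log2 fold changes near 0 changed sign under some settings. They were Txn1 -0.065 and Lpl -0.042 after quantile normalization; Sod2 0.083, Cops5 0.027 and Mgst3 0.046 after median centring; Igfbp5 -0.13, Txn1 -0.45, Cops5 0.35, Dag1 -0.042, Lpl -0.098 and Mgst3 0.51 on the average over every probe set. With 1 array left out, log2 fold changes that spanned 0 were those of Igfbp5 (-0.12 to 0.15), Sod2 (-0.14 to 0.11), Cops5 (-0.20 to 0.049), Mgst3 (-0.19 to 0.0098), Lpl (-0.11 to 0.15) and Dag1 (-0.030 to 0.36).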

Other observations

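Rnpep and Hmox1, genes of the related lists named after their values were seen, had 3 hypoxia arrays above the 3 normoxia arrays. Of all genes, 8.16% had this order. Rnpep, which encodes aminopeptidase B, a relative of leukotriene A4 hydrolase, had 168, 217 and 165 in hypoxia, against 95.4, 113 and 102 in normoxia (log2 fold change 0.82, limma adjusted p = 0.0917). It was called after each array was centred on its median (limma adjusted p = 0.0495) and under no other setting. Hmox1, the inducible haem oxygenase, had 340, 209 and 154 in hypoxia, against 105, 101 and 95.9 in normoxia (log2 fold change 1.14, limma adjusted p = 0.109). Its spread lay almost wholly in the hypoxia arrays. Hmox1 was called without hypoxia replicate 3, its lowest hypoxia array (limma adjusted p = 0.0268), and under no other setting.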
